A study of Mus musculus with 12 samples.

Results

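The genes described are 9 members of the machinery that loads peptides onto MHC class I molecules: H2-K1, H2-D1, B2m, Tap1, Tap2, Tapbp, Psmb8, Psmb9 and Nlrc5. They were chosen by symbol alone, and all 9 were rows of the matrices, of 31053 genes counted in embryonic liver (E16.5, in embryonic days) and 22597 genes counted in liver of pups (P3, in postnatal days). MHC class I molecules stand on the surface of nucleated cells and show short peptides, cut from the cell's own proteins, to cytotoxic T cells and to natural killer (NK) cells. The proteasome cuts the proteins, the Tap1–Tap2 transporter carries peptides into the endoplasmic reticulum, tapasin holds the empty molecule ready, and a heavy chain with beta-2 microglobulin takes the peptide to the surface. Most of these genes are known to be induced by interferons, and hepatocytes are known to carry little class I in resting liver.

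The study profiled single cells of whole mouse liver from crosses of Jag1Ndr/+ parents. At either stage the groups were wild type (Jag1+/+), heterozygous (Jag1Ndr/+) and homozygous (Jag1Ndr/Ndr), with 2 individuals planned for each. Jag1 encodes a Notch ligand, and Ndr (Nodder) is a missense allele, which a gene count does not read, so the counts cannot check the genotype labels. No further allele or treatment was listed for any group, and the strain background was not given in the sources used here. Homozygous pups were recognised by jaundice, and the genotypes of control pups were read afterwards. Livers were digested with TrypLE Express at E16.5 only, dead cells were removed with magnetic beads at both stages, and the matrices were written by a different software release at each stage (3.1.0 and 3.0.2). Stage therefore cannot be told apart from digestion and software release.

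The 12 matrices held 9 separate libraries. At E16.5 these were Jag1+/+ replicate 1, Jag1Ndr/+ replicate 1, Jag1Ndr/Ndr replicates 1 and 2, and a matrix deposited identically under Jag1+/+ and Jag1Ndr/+, called the shared library and counted once as not homozygous. At P3, libraries A and B carried Jag1+/+ labels, but 19927 of 29132 barcodes of A also stood in the matrix labelled Jag1Ndr/Ndr replicate 1, and 16145 of 21880 barcodes of B in that labelled Jag1Ndr/Ndr replicate 2. The latter also held 18105 barcodes of A, and all 15754 barcodes of the matrix labelled Jag1Ndr/+ replicate 2 stood in B, so these 2 matrices were not used as separate libraries. The genotype of A and B is unclear and they entered no genotype comparison, while the stage label agreed in every copy. Library C was the matrix labelled Jag1Ndr/Ndr replicate 1 without the barcodes of A, and library D was Jag1Ndr/+ replicate 1. Nothing in the labels says that libraries of 1 group came from separate litters, so p-values measure the spread between these libraries. Barcodes with at least 1000 unique molecular identifiers (UMIs, which count captured RNA molecules) and at most 15% mitochondrial UMIs numbered 18357 to 29034 per library at E16.5 and 15024 to 21504 at P3, with medians of 2961 to 9256 UMIs.

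Cells were clustered without the class I genes and named from marker genes. A name such as "macrophage-like" marks a cluster by its markers. Hepatocyte-like, endothelial-like and mesenchymal-like clusters were found, beside blood-forming and immune classes. The mesenchymal-like class may not be of liver alone at P3, so its stage changes may compare different cells. At P3 the mesenchymal-like cluster was led by Ins2 and Ins1, the insulin genes of pancreatic islets, together with Col3a1 and Dcn, and 2 of the erythroid-like clusters at P3 had the interferon-induced genes Isg15 and Rsad2 among their leading genes. At E16.5 the cluster with the strongest hepatocyte markers held 89 to 222 of the 591 to 784 hepatocyte-like cells of a library, against 163 to 580 of 176 to 680 at P3. Stage changes of the hepatocyte-like class may therefore also compare different cells. A level below is in CPM, the gene's UMIs per 1000000 UMIs of all cells of a class summed in 1 library, and means are given ± SD over the 5 libraries at E16.5 or the 4 at P3.

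Of the 9 genes, 7 lie on chromosome 17 within the MHC, between 33915899 and 35267499 of mouse build GRCm38 (gene spans from the GENCODE annotation). Tapbp is at chr17:33915899-33929292 (plus strand), H2-K1 at chr17:33996017-34000347 (minus), Psmb9 at chr17:34181987-34187764 (minus), Tap1 at chr17:34187553-34197225 (plus), Psmb8 at chr17:34197721-34201454 (plus), Tap2 at chr17:34203527-34216321 (plus) and H2-D1 at chr17:35262730-35267499 (plus). B2m is at chr2:122147686-122153083 (plus) and Nlrc5 at chr8:94434356-94527272 (plus). Tap1 and Psmb9 stand head to head, with 225 bases between their RefSeq starts, whereas their GENCODE spans above overlap. H2-K1, H2-D1 and the H2-Q genes are near-identical in sequence, so reads may have been split between them and their separate values are uncertain. Between the outermost chromosome 17 members, 11 genes were counted at E16.5 only, none protein-coding, and of those that overlap a member, Gm19412, over Tapbp, held the most UMIs (263 over the E16.5 libraries).

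Promoter pieces of the heavy chains and of B2m are shown because these 3 genes, which make up the class I molecule itself, moved differently between the stages. H2-Q10 is added as a class I gene made mainly by hepatocytes. Each is a 30-base piece read 5′ to 3′ on the gene's strand from the RefSeq promoter table (GRCm38.p6), which held 7 of the 9 members. The first piece of each gene lies over the known enhancer A and interferon response element, and capitals mark a kappa B palindrome of 11 letters, the letters TTCACTTC or, in B2m, an interferon-stimulated response element (ISRE) of paired GAAA letters.
H2-K1, chr17:34000429-34000458, minus: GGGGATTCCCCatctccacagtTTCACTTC
H2-D1, chr17:35262923-35262952, plus: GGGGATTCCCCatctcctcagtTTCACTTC
H2-Q10, chr17:35469913-35469942, plus: gaggactccccatctccccagtTTCACTTC
B2m, chr2:122147538-122147567, plus: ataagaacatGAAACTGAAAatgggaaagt
The second piece lies where the X2 and Y boxes read by the Nlrc5-containing complex are known to be, and capitals mark TGACG and ATTGG when they stand 20 bases apart.
H2-K1, chr17:34000359-34000388, minus: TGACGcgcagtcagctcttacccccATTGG
H2-D1, chr17:35262993-35263022, plus: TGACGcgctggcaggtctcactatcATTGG
H2-Q10, chr17:35469988-35470017, plus: ttgaggctatcaggtctcacccccatgagt
B2m, chr2:122147609-122147638, plus: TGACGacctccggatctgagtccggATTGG

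Searched on both strands of 32851 promoter windows of 300 bases, the kappa B palindrome was in 0.0304% (10 windows), TTCACTTC in 1.50%, the ISRE, read as GAAA, 2 free letters and GAAA, in 3.44%, TGACG in 20.8% and CCAAT, whose reverse complement is ATTGG, in 37.4%. TGACG and ATTGG at the spacing above were in 0.0944% (31 windows). H2-K1 and H2-D1 shared the same letters at the marked positions, and the H2-Q10 pieces held TTCACTTC only. The Tap1 and Psmb9 windows overlap, and their TGACG and CCAAT matches, outside that spacing, were the same bases read from opposite strands. The Tapbp window held CCAAT matches, and the Psmb8 window held none of these letters. A match is a description of the letters and not a measured binding site.

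The heavy chains were highest in T and NK-like cells and lowest in erythroid-like cells at both stages. H2-K1, one of the classical heavy chains, averaged 921 ± 259 CPM in T and NK-like cells at E16.5 (4 libraries, since Jag1+/+ replicate 1 had 10 such cells) and 8.11 ± 2.93 CPM in erythroid-like cells. At P3 the same classes were at 1284 ± 315 and 26.9 ± 11.6 CPM. Next after T and NK-like cells for H2-K1 at E16.5 came macrophage-like cells at 121 ± 53.5 CPM and then hepatocyte-like cells at 113 ± 25.3 CPM. At P3 hepatocyte-like cells were eighth of 12 classes at 127 ± 21.4 CPM, while macrophage-like cells stood at 786 ± 293 CPM. Most neighbours in this order were not separated: the library ranges overlapped for 8 of 10 neighbouring pairs at E16.5 and for 10 of 11 at P3.

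H2-D1, the other classical heavy chain, was also highest in T and NK-like and lowest in erythroid-like cells, with a different order between them: 818 ± 135 CPM in T and NK-like, 247 ± 53.6 in monocyte-like and 83.5 ± 23.7 in hepatocyte-like cells at E16.5. B2m, the light chain shared by all class I molecules, was 28.4-fold higher in its highest class than in erythroid-like cells at E16.5 and 15.7-fold at P3, against 114-fold and 47.7-fold for H2-K1 and 9.83-fold and 7.33-fold for Tapbp. Nlrc5, the transactivator of class I genes, was a low transcript in every class: its highest mean was 6.60 ± 3.15 CPM at E16.5 and 13.6 ± 3.45 CPM at P3, both in T and NK-like cells. The E16.5 mean rests on 1 to 4 UMIs in 20 to 37 cells per library. The library ranges of Nlrc5 overlapped for 10 of 10 neighbouring pairs of classes at E16.5 and for 11 of 11 at P3. Dendritic-like cells, named at P3 only, had the highest means of Tap1, Tap2, Tapbp, Psmb8 and Psmb9 at that stage, among them 830 ± 151 CPM for Psmb8. For these genes the ranges of 8 (Psmb8 and Psmb9) to 11 (Tap1) of 11 neighbouring pairs overlapped at P3. Hepatocyte-like cells had the lowest means of Tap1 and Psmb8 outside erythroid-like cells at E16.5, at 3.42 ± 1.44 and 7.74 ± 3.31 CPM.

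**Figure D1:**
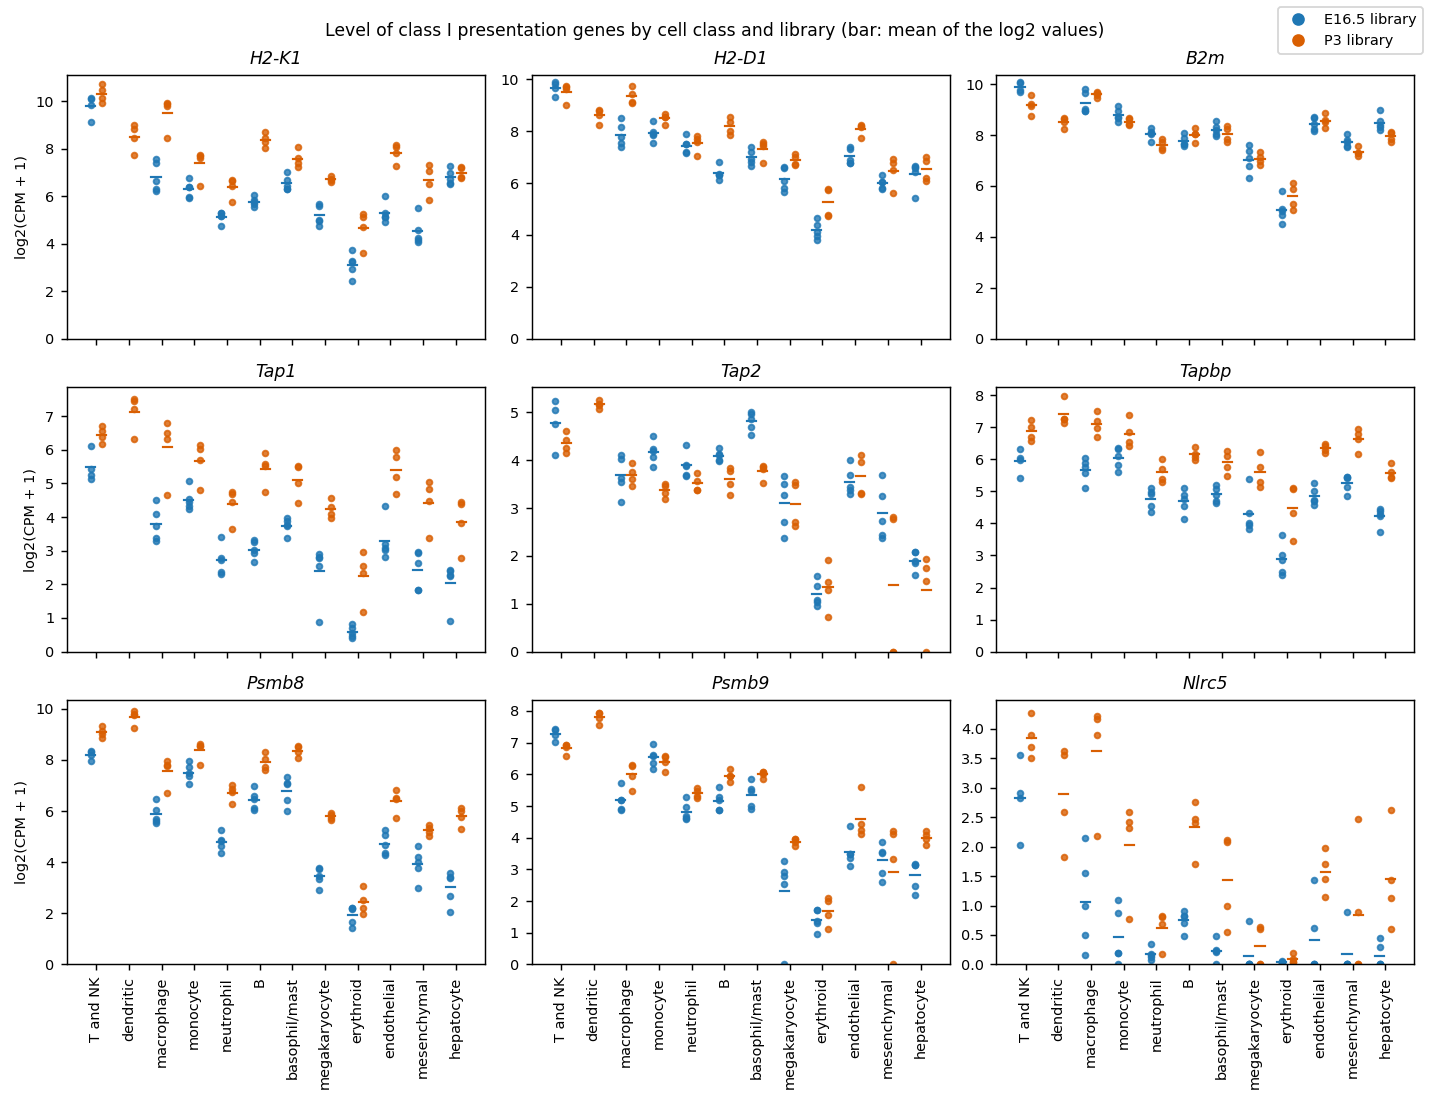
Level of the 9 genes as log2(CPM + 1) by cell class, with 1 point per library (blue, E16.5; orange, P3) and a bar at the mean of the log2 values. H2-K1 and Tap1 stand higher at P3 in most classes, whereas the H2-K1 points of hepatocyte-like cells overlap and B2m rose in no class by the test. Dendritic-like cells were named at P3 only.

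Between E16.5 and P3 the class I genes rose in most cell classes, though not all members and not equally. Tested with edgeR's quasi-likelihood test on summed counts in 10 classes, 48 of 81 member-by-class tests rose and 8 fell at an adjusted p of at most 0.05, with a median log2 fold change of 0.86. Over all genes tested the same way, 45.1% of tests were called, 22.6% higher and 22.5% lower, with a median of 0.01. A single call is therefore close to the background, while the direction of the members' calls leaned to P3. Some rises were partly set by the filter on low counts, which the P3 libraries met alone. These were Nlrc5 in both its classes, Tap1 in mesenchymal-like and megakaryocyte-like cells and Psmb9 in megakaryocyte-like cells. Fold changes were scaled by the trimmed mean of M-values (TMM), which sets the typical gene near 0. On plain CPM the median gene was itself 0.25 to 0.57 higher on the log2 scale at P3 in 6 of the 10 classes, 0.14 to 0.24 higher in 3 and 0.08 lower in hepatocyte-like cells, so small fold changes and CPM ratios can differ in sign.

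By class, 7 members rose and 1 fell in B-like cells, where 26.1% of all genes tested with edgeR rose and 25% fell. It was 6 and 0 in macrophage-like cells (24.9% and 24.7%) and 6 and 0 in endothelial-like cells (18% and 18.7%). Megakaryocyte-like cells had 5 rises and 1 fall (of 8016 genes tested, 1319 rose and 1393, or 17.4%, fell) and monocyte-like cells 5 and 1 (25.1% and 24.7%). There were 4 rises in each of hepatocyte-like (22.2% and 20.9% of all genes), mesenchymal-like (15.2% and 16.2%), basophil and mast-like (24.8% and 24.9%) and neutrophil-like cells (25.3% and 24.7%), with 2 falls in neutrophil-like and 1 in each of the others. Erythroid-like cells had the fewest, 3 rises and 0 falls (24.5% and 24.2%). Dendritic-like cells were named at P3 only, so the monocyte-like class may hold other cells at E16.5 than at P3, which was not tested.

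H2-K1 rose in 9 of 10 classes. In macrophage-like cells, the liver-resident phagocytes, its level was 72.4, 166, 99.0, 190 and 78.1 CPM in the 5 libraries at E16.5 (in the order Jag1+/+ replicate 1, shared, Jag1Ndr/+ replicate 1, Jag1Ndr/Ndr replicates 1 and 2) and 348, 932, 963 and 899 CPM in libraries A to D at P3. All P3 values lay above all E16.5 values, and library A was far below the other 3. The log2 fold change was 2.32 ± 0.32 (SE; edgeR, adjusted p = 0.000129). In B-like cells, H2-K1 went from 45.6, 56.7, 52.3, 66.1 and 49.3 CPM to 263, 415, 346 and 312 CPM, again without overlap (2.39 ± 0.17, edgeR adjusted p = 1.4e-06). Endothelial-like cells, which line the sinusoids, went from 33.9, 38.5, 33.5, 62.4 and 29.5 CPM to 154, 282, 270 and 225 CPM (2.23 ± 0.22, edgeR adjusted p = 2.9e-06). The other rises ranged from 0.87 in basophil and mast-like to 1.88 in mesenchymal-like cells, where library D held 7 H2-K1 UMIs. In erythroid-like and monocyte-like cells the H2-K1 library levels of the stages overlapped.

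Hepatocyte-like cells were the class in which H2-K1 did not pass the test. Their H2-K1 level was 89.9, 151, 124, 93.3 and 105 CPM at E16.5 and 106, 148, 112 and 143 CPM at P3, so the stages overlapped throughout. The log2 fold change was 0.25 ± 0.17 (edgeR, adjusted p = 0.249). Over 20 alternative settings, none of which called it, it ranged from -0.23 in the cluster with the strongest hepatocyte markers to 0.34 (edgeR or DESeq2 adjusted p from 0.130 to 0.750). H2-Q10, the hepatocyte class I gene, was 399 ± 68.7 and 376 ± 132 CPM in the same cells. It was -0.03 ± 0.19 on the log2 scale (edgeR, adjusted p = 0.922).

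H2-D1 rose in 4 classes: B-like (1.57 ± 0.20, edgeR adjusted p = 8.0e-05), macrophage-like (1.10 ± 0.22), endothelial-like (0.76 ± 0.18) and monocyte-like (0.47 ± 0.17). In macrophage-like cells it read 220, 281, 165, 364 and 183 CPM at E16.5 and 554, 846, 694 and 548 CPM at P3, without overlap. In neutrophil-like cells it was 176 ± 38.4 and 187 ± 41.3 CPM (-0.12 ± 0.24, edgeR adjusted p = 0.721). The monocyte-like call was kept in 8 of 19 alternatives and was 0.017 at a Leiden resolution of 0.5 (edgeR, adjusted p = 0.948). Because H2-K1 rose more, the ratio of H2-K1 to H2-D1 UMIs went from 0.494 ± 0.115 to 1.19 ± 0.434 in macrophage-like cells and from 0.652 ± 0.101 to 1.16 ± 0.251 in B-like cells. In hepatocyte-like cells the ratio was 1.52 ± 0.822 and 1.45 ± 0.496, highest in Jag1Ndr/+ replicate 1 at 2.93. These are ratios of UMIs, with no correction for length.

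B2m rose in no class and fell in 4. In hepatocyte-like cells it read 315, 498, 295, 331 and 373 CPM at E16.5 and 280, 231, 213 and 267 CPM at P3, with every P3 value below every E16.5 value (-0.45 ± 0.15, edgeR adjusted p = 0.0290). The hepatocyte-like call was kept in 15 of 20 alternatives. With class I genes kept among the variable genes it was -0.23 (edgeR, adjusted p = 0.294). The other falls were in mesenchymal-like (-0.71), neutrophil-like (-0.61) and megakaryocyte-like cells (-0.49, kept in 10 of 19 alternatives). In megakaryocyte-like cells the plain B2m level was 137 ± 45.8 CPM at E16.5 and 135 ± 20.9 CPM at P3, with overlapping libraries. At a Leiden resolution of 0.5 the mesenchymal-like change was -0.096 (edgeR, adjusted p = 0.627). In macrophage-like cells B2m averaged 638 ± 196 and 772 ± 56.0 CPM, a fitted change of -0.07 ± 0.20, which is one of 9 member tests whose sign differed between fitted and plain CPM values. Only 1 of those 9, Tap2 over all cells, passed the test.

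Tap1 rose in all 10 classes and Tap2, its partner in the peptide transporter, in none. In mesenchymal-like and megakaryocyte-like cells the P3 libraries alone carried Tap1 past the filter on low counts, so a rise there was partly set by the filter. Mesenchymal-like cells held 3 to 13 Tap1 UMIs per library at E16.5 and 4 to 11 at P3. In monocyte-like cells the Tap1 library levels of the stages overlapped. Tap1 in macrophage-like cells went from 12.3, 15.9, 9.48, 21.7 and 8.76 CPM to 24.4, 79.1, 89.2 and 110 CPM, with library A just above the highest E16.5 library (2.08 ± 0.34, edgeR adjusted p = 0.000411). In erythroid-like cells it went from 0.514 ± 0.175 to 4.24 ± 2.30 CPM (2.41 ± 0.30, edgeR adjusted p = 7.3e-05), and in hepatocyte-like cells from 3.42 ± 1.44 to 14.9 ± 6.92 CPM (2.02 ± 0.45, edgeR adjusted p = 0.00252). The hepatocyte-like values rest on 6 to 31 UMIs per library.

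Tap2 fell in 4 of 9 classes tested. In basophil and mast-like cells it went from 30.2, 28.0, 22.2, 31.4 and 24.7 CPM to 13.1, 13.5, 10.5 and 13.7 CPM, without overlap (-1.27 ± 0.13, edgeR adjusted p = 1.1e-05). It also fell in monocyte-like (-0.93), B-like (-0.74) and neutrophil-like cells (-0.60). No Tap2 UMI was found in hepatocyte-like cells of library C, of 967022 UMIs, where 3 counts, the limit that a count of 0 allows by counting error, would be 3.1 CPM. Tapbp, which encodes tapasin, rose in all 10 classes, from 0.66 in neutrophil-like to 1.46 ± 0.17 in hepatocyte-like cells, where it went from 17.9 ± 3.30 to 47.5 ± 7.15 CPM (edgeR, adjusted p = 2.3e-05). Its megakaryocyte-like call (0.82) was kept in 12 of 19 alternatives and was 0.52 without library C (edgeR, adjusted p = 0.142). In erythroid-like and megakaryocyte-like cells the Tapbp library levels of the stages overlapped.

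**Figure D2:**
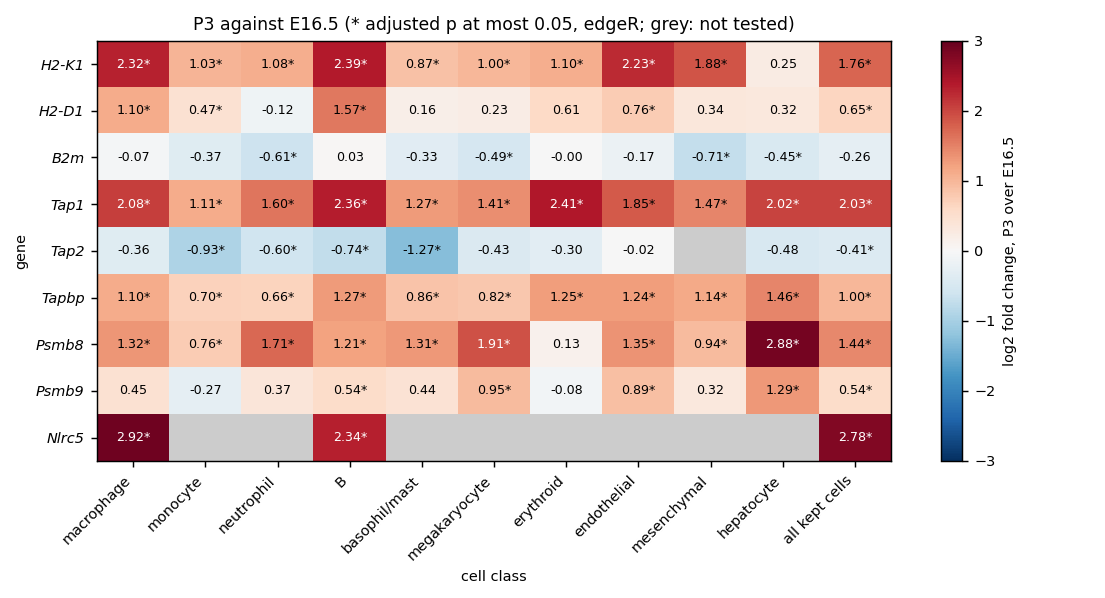
Log2 fold change of each member, P3 over E16.5, by cell class and over all kept cells. Red is higher at P3, blue is lower, grey was not tested, and a star marks an edgeR adjusted p of at most 0.05. The Tap1 and Tapbp rows are starred in all 10 classes, the H2-K1 row in every class but hepatocyte, and the B2m and Tap2 rows hold all falls called, 8 within classes and that of Tap2 over all kept cells. Within classes, Tap1 in mesenchymal and megakaryocyte, Psmb9 in megakaryocyte and Nlrc5 passed the filter on low counts through P3 libraries.

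Psmb8 and Psmb9 encode inducible catalytic subunits that replace constitutive ones in the immunoproteasome. Psmb8 rose in 9 of 10 classes. Its largest change was in hepatocyte-like cells, a class that may hold other cells at E16.5 than at P3. There it read 9.56, 3.13, 11, 9.61 and 5.45 CPM at E16.5 and 38.4, 67.9, 53.8 and 62.2 CPM at P3, with a wide gap between the stages (2.88 ± 0.32, edgeR adjusted p = 2.0e-05). Megakaryocyte-like cells went from 10.2 ± 2.50 to 54.4 ± 4.96 CPM (1.91 ± 0.25, edgeR adjusted p = 5.7e-05). Erythroid-like cells, at 2.91 ± 0.929 and 4.70 ± 1.98 CPM, did not pass (0.13 ± 0.26, edgeR adjusted p = 0.706). The rise in basophil and mast-like cells was lost, at 0.21, with class I genes kept among the variable genes (edgeR, adjusted p = 0.454). In monocyte-like cells the Psmb8 library levels of the stages overlapped. Psmb9 rose in 4 classes, hepatocyte-like (1.29 ± 0.30), megakaryocyte-like (0.95), endothelial-like (0.89) and B-like (0.54). The last 3 of these calls were kept in 11 of 17, 10 of 17 and 13 of 19 alternatives. In megakaryocyte-like cells, with 0 to 13 Psmb9 UMIs per library at E16.5, the P3 libraries carried Psmb9 past the filter on low counts. Without library C the endothelial-like change was 0.43 (edgeR, adjusted p = 0.331), and in the cluster with the strongest hepatocyte markers the hepatocyte-like change was 0.69 (edgeR, adjusted p = 0.199).

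Of the 8 other proteasome genes listed, 35 of 80 tests rose and 19 fell, with a median of 0.48, where 22.6% of tests over all genes rose and 22.5% fell. The immunoproteasome subunit Psmb10 rose in 9 classes, most in hepatocyte-like cells (18.0 ± 2.66 to 76.7 ± 24.3 CPM; 2.15 ± 0.22, edgeR adjusted p = 1.0e-05), and fell in erythroid-like cells (-0.51). Psme1, a subunit of the PA28 activator, rose in all 10 (1.2 ± 0.12 in neutrophil-like cells, edgeR adjusted p = 1.4e-05). Psme3, a nuclear PA28 subunit, fell in 8 (-1.36 ± 0.16 in neutrophil-like cells). Psmb7, a constitutive catalytic subunit, fell in 9 (-1.06 ± 0.14 in macrophage-like cells). The constitutive Psmb5, which Psmb8 replaces, rose in 8 and Psmb6, which Psmb9 replaces, rose in 6, so the constitutive subunits did not move one way. These last 2 genes were singled out after their values were seen.

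**Figure D3:**
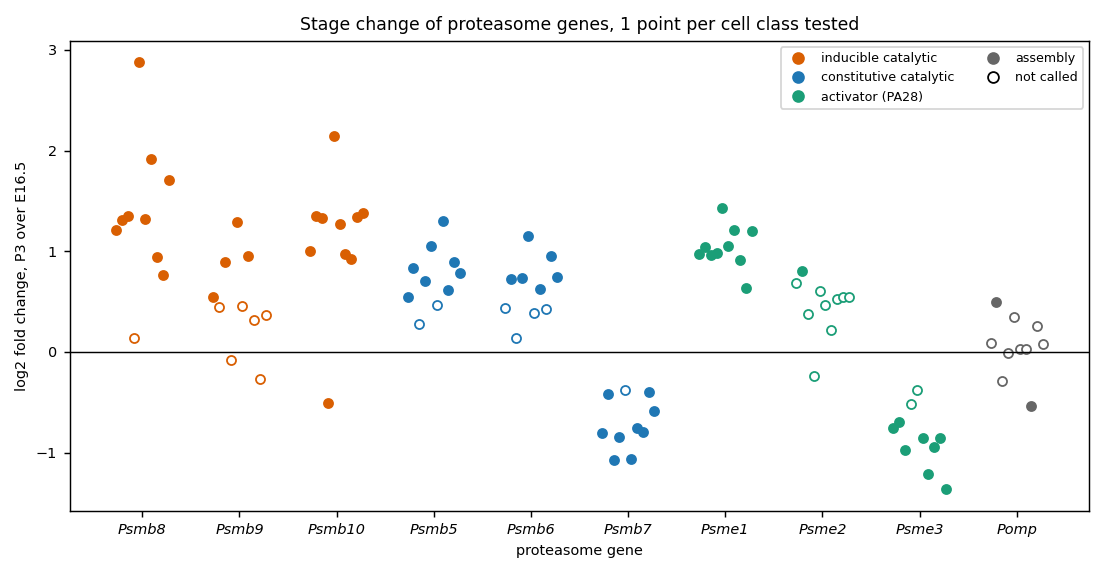
Log2 fold change, P3 over E16.5, of 10 proteasome genes, with 1 point per cell class tested, filled where the edgeR adjusted p was at most 0.05. Psmb8, Psmb10, Psmb5, Psmb6 and Psme1 lie mostly above 0, and Psmb7 and Psme3 lie below 0 in all 10 classes.

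Nlrc5 had enough counts to test in 2 classes and was called higher at P3 in both. The filter on low counts can be met by the libraries of 1 stage alone. In both classes the P3 libraries carried Nlrc5 past it, with 5 to 13 UMIs per library in B-like cells at E16.5. A rise in each class tested was thus partly set by the filter. In macrophage-like cells it went from 0.985, 1.93, 0.406, 3.43 and 0.112 CPM to 3.54, 17.6, 13.9 and 16.8 CPM, from 1 to 21 UMIs a library to 27 to 132 (2.92 ± 0.59, edgeR adjusted p = 0.00159). Library A was the lowest at P3 and lay close to the highest E16.5 library. In B-like cells Nlrc5 went from 0.686 ± 0.187 to 4.20 ± 1.43 CPM (2.34 ± 0.30, edgeR adjusted p = 9.2e-05).

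Summed over all kept cells, where a change in a gene and a change in the mix of cells cannot be told apart, 7 of 9 members rose and 1 fell, against 27% and 25.8% (52.8% in all) of 14416 genes tested with edgeR. H2-K1 was 24.4, 49.7, 29.8, 42.5 and 29.6 CPM at E16.5 and 119, 235, 206 and 157 CPM at P3 (1.76 ± 0.22, edgeR adjusted p = 0.000120). Nlrc5 had the largest fold change (2.78 ± 0.47), followed by Tap1 (2.03 ± 0.23), and B2m did not pass (-0.26 ± 0.16, edgeR adjusted p = 0.198). Tap2 was called lower (-0.41 ± 0.16, edgeR adjusted p = 0.0473), but its plain level was 7.53 ± 1.61 and 8.44 ± 1.54 CPM, and the call was kept in 6 of 17 alternatives.

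The counting depth differed between the stages, so the share of cells with a UMI was also read after each cell was thinned to 1000 UMIs, which no kept cell fell short of. An H2-K1 UMI was then found in 8.42% ± 2.45 of macrophage-like cells at E16.5 and in 45.4% ± 10.8 at P3, and in 6.05% ± 1.23 and 30.6% ± 4.79 of B-like cells. Erythroid-like cells, which make little class I, gave 0.991% ± 0.290 and 1.91% ± 0.724. In hepatocyte-like cells the share was 5.46% ± 1.10 and 10.5% ± 1.59, where the summed level had not passed the test. Before thinning, the shares were 34.0% and 72.4% in macrophage-like, 27.5% and 30.6% in hepatocyte-like and 5.34% and 9.47% in erythroid-like cells, at median depths of 3773 to 5765, 2762 to 4816 and 4922 to 9315 UMIs at E16.5 and of 3210.5 to 5537, 2811 to 4257 and 2655.5 to 5388 at P3.

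RNA of other cells was read in each class, and its share differed between the stages in a different way from class to class. Globin genes took a median of 23.4% of the UMIs of hepatocyte-like cells at E16.5 and 25.8% at P3, against 21.6% and 10.5% in B-like, 28.9% and 20.1% in macrophage-like and 15.9% and 3.02% in neutrophil-like cells. Alb, a secreted hepatocyte protein, read in erythroid-like cells at 1.27% to 1.79% of its hepatocyte-like level at E16.5 and 0.154% to 0.723% at P3. The erythroid-like level of H2-K1 was 4.96% to 8.19% of its hepatocyte-like level at E16.5 and 10.6% to 30.6% at P3. With globin left out of the totals, H2-K1 in macrophage-like cells was 177 ± 78.5 and 990 ± 324 CPM and in hepatocyte-like cells 147 ± 28.7 and 166 ± 22.3 CPM. Without globin, limma still called the H2-K1 change smaller in hepatocyte-like than in macrophage-like, B-like, endothelial-like and neutrophil-like cells. The part of RNA from other cells in these levels was not tested.

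The genes around the members moved in several ways between the stages. Of the list of 21 other class I and class I-like genes, 17 were in the matrices and the other 4 were not analysed here. In 85 tests, 23 rose and 16 fell, with a median of 0.15, close to the background of 22.6% rises and 22.5% falls over all genes. Fcgrt, the neonatal Fc receptor heavy chain, rose in 8 classes (hepatocyte-like, 23.2 ± 2.34 to 77.6 ± 13.3 CPM; 1.79 ± 0.15, edgeR adjusted p = 1.7e-06). Cd1d1, which presents lipids, rose in 3 and fell in 1 (hepatocyte-like, 1.84 ± 0.24), and Hfe, a regulator of iron uptake, rose in 4 and fell in 1 (neutrophil-like, 1.28 ± 0.17). H2-T23, the nonclassical heavy chain Qa-1, fell in 8 classes (basophil and mast-like, -1.73 ± 0.18, edgeR adjusted p = 1.3e-05). Peptide loading and trimming genes gave 14 rises and 14 falls in 68 tests (median 0.09), also close to that background. The chaperone Canx fell in 7 classes (hepatocyte-like, -1.12 ± 0.18) and Calr rose in 5 (basophil and mast-like, 0.73 ± 0.13). Hspa5 rose in 4 and fell in 1 (basophil and mast-like, 0.79 ± 0.11), and Lnpep, a trimming peptidase, fell in 5 (neutrophil-like, -0.87 ± 0.15).

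Regulators gave 73 rises and 31 falls in 184 tests, with a median of 0.33, against 22.6% and 22.5% of tests over all genes. Irf8, a factor of myeloid and B cells, rose in 8 classes (basophil and mast-like, 2.87 ± 0.22, edgeR adjusted p = 1.1e-06). Irf1, an interferon-induced activator, rose in 6 of 9 (neutrophil-like, 1.34 ± 0.16). Socs3, a feedback inhibitor of cytokine signals, fell in all 10 (endothelial-like, -2.04 ± 0.19). Ciita, the class II counterpart of Nlrc5, rose in 2 of 3 classes and fell in 1 (B-like, 4.51 ± 0.54). Outside the naming rule, and chosen after its values were seen, Irf7 rose in all 10 classes (1.43 to 3.23), with macrophage-like cells at 31.6 ± 16 and 363 ± 186 CPM.

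Interferon receptors and kinases gave 21 rises and 17 falls in 80 tests, with a median of 0.00. This is close to the 22.6% of rises and 22.5% of falls over all genes. Ifngr1 and Jak1 rose in 8 classes each (basophil and mast-like, 1.14 ± 0.14, and endothelial-like, 0.99 ± 0.15), Ifnar2 rose in 3 and fell in 1, and Ifnar1 fell in 4 (neutrophil-like, -0.81 ± 0.12). No interferon gene was tested within a class, and T and NK-like cells, with 10 cells in 1 E16.5 library, were not among the classes fitted. Over all cells Ifng rose (0.427 ± 0.391 to 3.56 ± 1.91 CPM; 2.41 ± 0.57, edgeR adjusted p = 0.00470), while within T and NK-like cells, untested, it was 180 ± 68.8 and 181 ± 63.2 CPM. The list of receptors for class I and of related receptors, not all of which read class I itself, gave 8 rises and 1 fall in 17 tests. Over all genes the shares were 22.6% and 22.5%. Pirb (macrophage-like, 1.92 ± 0.18, edgeR adjusted p = 8.4e-06), Lilrb4a (2.33 ± 0.41) and Klrk1 (basophil and mast-like, 2.52 ± 0.48) were among the rises, and the NK receptor gene Klrd1 fell in monocyte-like cells (-5.57 ± 0.80, edgeR adjusted p = 0.000152). With dendritic-like cells split off at P3 only, a change in the gene and a change in the cells of that class cannot be told apart.

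Whether the stage change of hepatocyte-like cells differed from that of other classes was tested with limma on the difference of log2(CPM + 5) between 2 classes of the same library, a scale that understates changes of low genes. Of 35 member tests, 13 were lower and 5 higher in hepatocyte-like cells, against 29.3% and 6.62% (36% in all) of 41935 tests over all genes, whose median was -0.25. With TMM-scaled CPM, an alternative chosen after seeing the data, that median was -0.05, and the split over all genes went from 2778 higher and 12307 lower to 5044 higher and 6081 lower, so values are best read against the median. The H2-K1 change was smaller in hepatocyte-like cells by -2.47 ± 0.28 than in macrophage-like (limma, adjusted p = 7.1e-06), by -2.33 ± 0.18 than in B-like (limma, adjusted p = 4.3e-07), by -2.25 ± 0.26 than in endothelial-like (limma, adjusted p = 1.7e-05) and by -0.998 ± 0.18 than in neutrophil-like cells (limma, adjusted p = 0.000585). All 4 were called in all 16 alternatives, and with TMM-scaled CPM they were -2.13, -2.11, -1.88 and -0.80. The hepatocyte-like class may hold other cells at E16.5 than at P3, so these differences may compare different cells.

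H2-D1 differed in the same direction against B-like (-1.57 ± 0.21), macrophage-like (-1.28 ± 0.24) and endothelial-like cells (-0.85 ± 0.24). With TMM-scaled CPM the last was -0.47 and no longer called (limma, adjusted p = 0.160). H2-D1 was 0.08 ± 0.24 against neutrophil-like cells (limma, adjusted p = 0.813). B2m did so against macrophage-like (-0.85 ± 0.20), B-like (-0.76 ± 0.19) and endothelial-like cells (-0.65 ± 0.21). With TMM-scaled CPM the call against macrophage-like (-0.50, limma adjusted p = 0.0639) and that against endothelial-like cells (-0.27, limma adjusted p = 0.320) were both lost, and the latter was kept in 10 of 16 alternatives. Psmb8 went the other way, with a larger change in hepatocyte-like cells than in B-like (0.84 ± 0.17), endothelial-like (0.75 ± 0.20), macrophage-like (0.65 ± 0.22) and neutrophil-like cells (0.48 ± 0.15). With 20 CPM added in place of 5, near or above the hepatocyte-like level at E16.5, these 4 were 0.15, 0.27, 0.03 and 0.03 and none was called, and with 1 CPM added they were 1.29, 1.11, 1.08 and 0.83. Tapbp had a larger change than in neutrophil-like cells (0.45 ± 0.15, in 9 of 16 alternatives).

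Tap1 (-0.77 ± 0.16 against B-like, -0.80 ± 0.21 against macrophage-like cells) was also called smaller in hepatocyte-like cells. With 1 CPM added in place of 5 the Tap1 calls were lost, at -0.60 against B-like (limma, adjusted p = 0.158) and -0.46 against macrophage-like cells (limma, adjusted p = 0.236). The hepatocyte-like level of Tap1 at E16.5, 3.42 CPM, was below the 5 CPM added. On the fitted scale without that addition the Tap1 change was 2.02 in hepatocyte-like, 2.36 in B-like and 2.08 in macrophage-like cells. Nlrc5 was counted among the 13 lower tests (-0.98 against macrophage-like cells), but hepatocyte-like cells held 0 to 5 Nlrc5 UMIs per library, at levels under or near the 5 CPM added, so that value says nothing of how the Nlrc5 change differed.

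Within P3, library A was the lowest of the 4 libraries in 8 of 10 classes for H2-K1, 9 for Tap1, 9 for Psmb8, 7 for Psmb9 and 6 for Tapbp, but in 1 for H2-D1, 2 for B2m and 2 for Tap2. Nlrc5 had too few UMIs in most classes to be ranked this way. How often A was lowest over all genes is not given here, and the 10 classes come from the same library. The counts therefore describe library A and cannot be read as a trait of the members. Tap1 over all cells was 15.1 CPM in A and 29.6, 31.4 and 30.9 CPM in B, C and D. Among genes of the regulator list, Irf7 was lowest in A in all 10 classes, and Irf1 in 8, whereas the receptor gene Ifngr1 was lowest in 2. The genotype of A is unclear and it was the most deeply counted P3 library, so genotype and depth cannot be told apart here. Without A, 5 of the calls above were lost: H2-D1 in monocyte-like (0.43, edgeR adjusted p = 0.0799), Psmb8 in mesenchymal-like (0.92, edgeR adjusted p = 0.0746) and Psmb9 in megakaryocyte-like cells (0.97, edgeR adjusted p = 0.0693), and the hepatocyte-like differences of Psmb8 from macrophage-like (0.53, limma adjusted p = 0.0797) and of Tapbp from neutrophil-like cells (0.41, limma adjusted p = 0.0678).

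**Figure D4:**
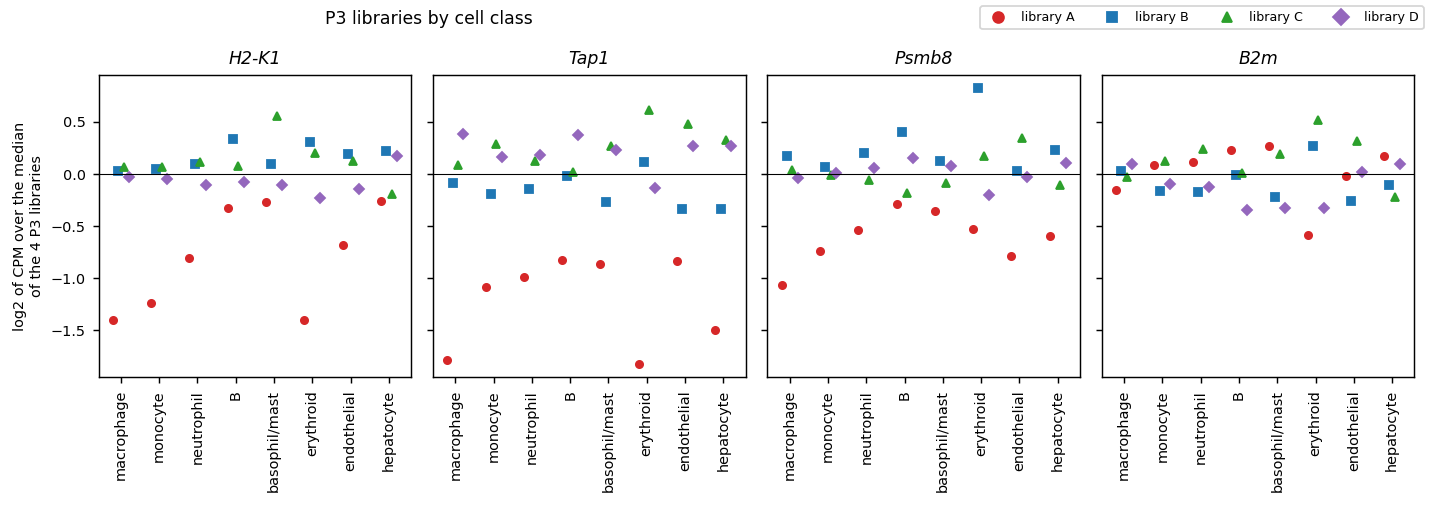
Level of 4 members in the 4 P3 libraries, as the log2 of CPM over the median of the 4 libraries, for 8 cell classes. Library A (red circles) lies below the other 3 for H2-K1, Tap1 and Psmb8 in nearly every class drawn, and is mixed with them for B2m.

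Library C (Jag1Ndr/Ndr label) and library D (Jag1Ndr/+ label) are single libraries, so no test compares them, and exact 95% Poisson intervals cover counting error only. Of 94 member-by-class pairs, 14 were at least 1.5-fold higher in C and 1 at least 1.5-fold higher in D, against 9.3% and 13.9% of 100420 pairs over all genes, and the median member ratio was 1.13. Over all cells H2-D1 was 184 CPM (interval 182 to 187) in C and 121 CPM (118 to 123) in D, and H2-K1 was 206 and 157 CPM. In T and NK-like cells H2-K1 was 1668 CPM (1611 to 1727) in C and 957 CPM (895 to 1022) in D. Macrophage-like cells were closer, at 963 CPM (932 to 994) and 899 CPM (865 to 934), and hepatocyte-like cells had 112 CPM (91.6 to 135) and 143 CPM (119 to 171). The pair higher in D was Tap1 in megakaryocyte-like cells, at 19 UMIs in C and 22 in D.

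At E16.5, where 2 homozygous libraries could be set against 3 that were not, no member passed the test in any class. In simulated counts with known changes, the same edgeR fit recovered 1.04% of 2-fold and 51% of 4-fold changes over all cells. The shares were 15.6% and 91.8% in macrophage-like and 22.7% and 88.9% in endothelial-like cells. The simulation gave all genes 1 dispersion and adjusted p within 1 class, whereas the class tests here were adjusted over all classes. Its shares therefore do not measure the power of the class tests. Most 2-fold changes were missed even so, and a lack of calls does not show that genotype had no effect. edgeR called 0 of 79 member-by-class tests, with 1 below the unadjusted threshold: Psmb9 in mesenchymal-like cells (-0.92 ± 0.43, edgeR adjusted p = 1). Over all genes 0% of 109540 tests were called, with 1867 at an unadjusted p under 0.05, and DESeq2 called 17. The log2 fold changes of members ran from -0.92 to 0.71 with a median of 0.16, and 66 of 79 were above 0. Over all genes the class medians ran from -0.016 in endothelial-like to 0.005 in erythroid-like cells. The 79 values share the same 5 libraries, so they are not separate evidence. Over all cells they ran from -0.01 (Tapbp) to 0.46 (Nlrc5), each with an edgeR adjusted p of 1, against 0% of 16117 genes called, with 170 at an unadjusted p under 0.05 and 4 called by DESeq2.

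Over all cells, the lean to positive values rested on 1 library. Jag1Ndr/Ndr replicate 1 was the highest of the 5 libraries in 6 of 10 classes for H2-K1, Tap1, Psmb8 and Psmb9 and in 7 for H2-D1, but in 5 for Tap2, 4 for B2m and 0 for Tapbp. In macrophage-like cells it read 190 CPM of H2-K1, 364 of H2-D1, 894 of B2m, 21.7 of Tap1 and 88.4 of Psmb8, whereas Jag1Ndr/Ndr replicate 2 read 78.1, 183, 486, 8.76 and 47.5 CPM. In these cells the 2 homozygous libraries thus stood at or near opposite ends of the 5. Irf7 was highest in Jag1Ndr/Ndr replicate 1 in all 10 classes and Irf9 in 9. How often this library was highest over all genes is not given here, and its cells were the most deeply counted at E16.5 (median of 9256 UMIs). The rank counts therefore describe this library and cannot be read as a trait of the members. Without that library the all-cell changes of 8 members turned from positive to negative, among them H2-K1 (0.22 to -0.12), Tap1 (0.26 to -0.32) and Nlrc5 (0.46 to -1.39).

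**Figure D5:**
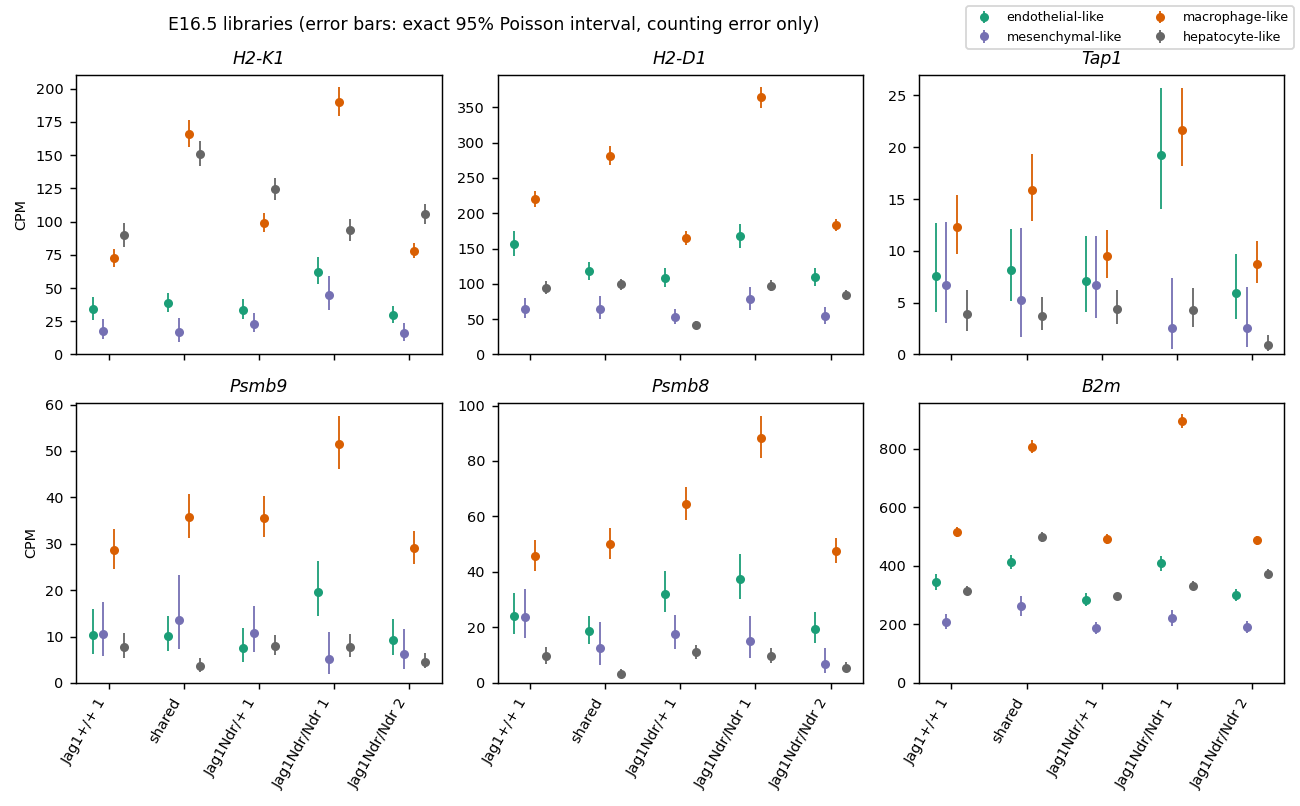
Level in CPM of 6 members in the 5 E16.5 libraries for endothelial-like, mesenchymal-like, macrophage-like and hepatocyte-like cells, with exact 95% Poisson intervals (counting error only). Jag1Ndr/Ndr replicate 1 is high in macrophage-like and endothelial-like cells, and Jag1Ndr/Ndr replicate 2 is the lowest for Tap1 in hepatocyte-like cells.

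Across the 102 class-by-library sums of at least 20 cells, which share libraries, depth and composition and so carry no p, the members went together to different degrees in log2(CPM + 5). The closest pair was Psmb8 with Psmb9 (Pearson r = 0.94) and the most distant Tap2 with Nlrc5 (r = 0.37). H2-K1 and H2-D1 had r = 0.86. Among all other genes with enough signal, the 5 most like H2-K1 were Psmb10 (r = 0.85), Psme1 (0.85), Idnk (0.83), 2210016F16Rik (0.81) and Epsti1 (0.81). Among those most like Nlrc5 were Zbp1 (r = 0.78), Epsti1 (0.76), Lpxn (0.76) and Gbp4 (0.76). Those most like B2m were Fndc3a (r = 0.83), Cd164 (0.83), Rnf13 (0.83), Fkbp5 (0.82) and Rps6ka3 (0.81), none of which was among the 5 nearest to H2-K1 or Nlrc5.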

How the data were processed

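Droplet single-cell RNA-seq of whole liver was measured in 12 deposited samples. The matrices hold raw UMI counts per gene and barcode, as the authors deposited them. Per the submitters' processing notes, Cell Ranger 2.1.1, R 4.1.2 and Seurat were used with build mm10, whereas per the file headers the matrices came from releases 3.1.0 (E16.5) and 3.0.2 (P3). The members and lists were chosen with earlier results of these data known.

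Barcodes were kept at 1000 or more UMIs and at most 15% mitochondrial UMIs, and 4.11% to 13.4% per library were removed as doublets with Scrublet (scanpy 1.11.5). Clusters in which over 50% of barcodes were such doublets were left out whole. Cells were clustered per stage (2000 variable genes without class I genes, Leiden resolution 1) and named from the marker lists, with the smallest marker score raised to 0.5 after the leading genes were seen and before any contrast was fitted. UMIs per library in the cells analysed were 63676830 to 220640698.

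Counts were summed per library and class (at least 20 cells) and tested with edgeR 4.0.16 (filterByExpr, TMM, quasi-likelihood, Benjamini-Hochberg over all genes and classes). Genes counted at both stages numbered 22519. A standard error is the size of the log2 fold change over the root of F. Differences between classes used limma 3.58.1. DESeq2 1.42.0, other filters, scalings, clusterings and leaving out each library were tried. Scripts were tested on simulated data. Named were all 9 members, at most 4 called genes per list by smallest adjusted p, and the 5 genes most like H2-K1, B2m and Nlrc5. 1 gene that this rule or the lists hold is not reported here.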

Additional observations from a re-analysis of the deposited data

Results flagged for a closer look

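Groups of 4 or 5 libraries (a member in a class at 1 stage) share the same libraries, and no share over all genes is given here. A flag therefore marks a value and is no result about the members. In 216 such groups, 15 had a library at 1 end separated from the others by more than Dixon's 95% value, near the rate of about 1 in 20 that chance gives. Of these, 4 were the lowest value in P3 library A: H2-K1 in macrophage-like (348 CPM, others 899 to 963) and monocyte-like cells (85.8 CPM, others 196 to 212), Psmb8 in monocyte-like cells (224 CPM, others 370 to 390) and Tap1 over all cells (15.1 CPM). Another 6 were in Jag1Ndr/Ndr replicate 1 at E16.5. It was highest for H2-D1 in B-like cells (113 CPM, others 69.2 to 81.0), for H2-K1 in endothelial-like (62.4 CPM) and mesenchymal-like cells (44.9 CPM), and for Psmb9 (19.7 CPM) and Tap1 (19.2 CPM) in endothelial-like cells, and lowest for Tap1 in megakaryocyte-like cells (0.843 CPM, 1 UMI). The remaining 5 were H2-D1 in hepatocyte-like cells, lowest in Jag1Ndr/+ replicate 1 (42.3 CPM, others 84.4 to 99.2), Tap1 in hepatocyte-like cells, lowest in Jag1Ndr/Ndr replicate 2 (0.884 CPM), Tapbp in megakaryocyte-like cells, highest in the shared library (40.7 CPM), and library C, highest for Psmb9 in endothelial-like (47.5 CPM) and Tapbp in dendritic-like cells (249 CPM).

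The stage change of 18 member-by-class pairs differed between hepatocyte-like cells and another class (limma, adjusted p at most 0.05), as a difference of log2 fold changes. Against B-like cells these were H2-K1 (-2.33), H2-D1 (-1.57), Tap1 (-0.77), B2m (-0.76) and Psmb8 (0.84). Against endothelial-like cells they were H2-K1 (-2.25), H2-D1 (-0.85), B2m (-0.65) and Psmb8 (0.75). Against macrophage-like cells they were H2-K1 (-2.47), H2-D1 (-1.28), Nlrc5 (-0.98), B2m (-0.85), Tap1 (-0.80) and Psmb8 (0.65), and against neutrophil-like cells H2-K1 (-0.998), Psmb8 (0.48) and Tapbp (0.45). With TMM-scaled CPM the calls of H2-D1 against endothelial-like cells (-0.47) and of B2m against endothelial-like (-0.27) and macrophage-like cells (-0.50) were lost. With 1 CPM added, those of Tap1 against B-like (-0.60) and macrophage-like cells (-0.46) were lost, and with 20 CPM added all 4 of Psmb8. The Nlrc5 value rests on 0 to 5 Nlrc5 UMIs per library in hepatocyte-like cells, under or near the 5 CPM added, so it says nothing of how its change differed.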

How the results depend on the processing

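The H2-K1 differences of hepatocyte-like cells kept their direction and call under all 16 alternatives. Among members called between the stages within classes, 521 of 540 values kept their call under other settings, as did 461 of 500 with a library left out, and none reversed. Leaving out 1 library gave 42 to 51 member rises and 6 to 10 falls within classes (48 and 8 with all libraries), 5 to 7 rises and 0 to 1 falls over all cells (7 and 1), and 3 to 5 larger and 11 to 14 smaller hepatocyte-like changes (5 and 13). The 5 larger changes became 1 with 20 CPM added. The 1 fall over all cells, Tap2, became 0 with stricter cell filters, with doublets kept, with globin left out (an alternative chosen after seeing the data), with no filter on low counts and with the replicate block. Over all genes, leaving out 1 library gave 40519 to 44723 calls within classes, 6617 to 7511 over all cells and 11497 to 15566 for the hepatocyte-like differences. The cause of these shifts was not tested. Losing 1 library ended, in several cases each, the calls of Psmb9 in B-like, endothelial-like and megakaryocyte-like cells and over all cells, of H2-D1 in monocyte-like cells (any of 6 libraries), of B2m in hepatocyte-like (Jag1Ndr/Ndr replicate 2, the shared library, B or C) and megakaryocyte-like cells, of Tapbp in megakaryocyte-like cells and of Tap2 over all cells. Those of Tap2 in neutrophil-like cells (C or D), Psmb8 in mesenchymal-like cells (A or B) and H2-D1 over all cells (B) were also lost.

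For genotype, the 0 calls within classes became 17 with DESeq2, 484 with no filter on low counts, 4 with the replicate block and 0 to 59 with 1 library left out (15 without Jag1Ndr/Ndr replicate 1, 59 without replicate 2, 10 without Jag1+/+ replicate 1). The 0 calls over all cells became 4, 2 and 0 to 1 under DESeq2, no filter and a library left out. No member was among them with a library left out. With 1 library left out, the all-cell genotype changes ranged from -0.12 to 0.53 (H2-K1), -0.14 to 0.56 (H2-D1), -0.12 to 0.34 (B2m), -0.32 to 0.70 (Tap1), -0.18 to 0.41 (Tap2), -0.17 to 0.18 (Tapbp), -0.29 to 0.63 (Psmb8), -0.24 to 0.58 (Psmb9) and -1.39 to 1.28 (Nlrc5). The lowest were without Jag1Ndr/Ndr replicate 1 and the highest without replicate 2. Tapbp, at -0.01 with all libraries, also became 0.012 with DESeq2, 0.012 with RLE size factors, 0.014 with doublets kept, 0.014 with globin left out and 0.10 without the shared library.

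The replicate numbers pair samples by number only: the deviations of Jag1Ndr/Ndr replicate 1 and of the mean of the other replicates 1 had r = 0.34 over 14839 genes, and only 2 numbers exist. Counts in small classes limit Nlrc5, Tap1 and Tap2, which had 0 to 31 UMIs per library in hepatocyte-like cells.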
